A study of Mus musculus with 4 samples.

Results

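The oligodendrocyte lineage transcription factors examined here were Olig1, Olig2, Sox10, Sox8, Myrf, Nkx6-2, Nkx2-2, Zfp488, Zfp536 and St18. They were chosen by gene name, as factors known to specify oligodendrocytes or to drive their maturation, and are 10 of the 42458 rows of the count table. All 10 were found, and 9 had enough counts to be tested (at least 10 in total); Zfp488 had no count. Each of the 4 libraries held RNA of 50 sorted spinal cord cells from a single C57BL6 mouse. All 4 mice had been injected in a brain ventricle with AAV2-CAG-tdT, a virus that codes for the red fluorescent protein tdTomato under the CAG promoter, which is active in most cell types, and live tdTomato-positive cells from slices that held the ependymal region were sorted, with the gate set on a C57BL6 preparation. The aim was to enrich neurons that contact the cerebrospinal fluid (CSF-cNs). The labels give no age or sex. The 4 libraries form 1 group with 1 library per mouse and no untreated or sorted-negative library, so levels and the spread between mice can be given and no conditions can be compared. Values are in CPM, counts scaled by library size and composition, and lists of 4 values are in the order mice 1, 2, 3 and 4.

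The total counts per library were between 83007030 and 115479640, and the level that a count of 0 allows (3 counts, counting error only), called the floor here, lay between 0.0278 and 0.0348 CPM. The libraries did not match their label equally. The transgene row AAV2.CAG.tdT had 5, 58, 13533 and 153379 counts, another row named for tdT, PC.G5.tdT, had 0, 8, 760 and 9924 counts, and Pkd2l1, the channel gene that defines CSF-cNs, stood at 17.9, 0.193, 664 and 690 CPM. The 6 microglia genes summed to 29275 to 48657 CPM. The calls against 10 CPM and the order of the factors are therefore also given without mice 1 and 2. In such pooled cells, fewer cells of a type and less RNA per cell cannot be told apart.

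In the developing spinal cord, Olig2 and the related basic helix-loop-helix factor Olig1 set up the oligodendrocyte lineage from ventral progenitors, and the HMG-box factors Sox10 and Sox8 maintain it. Olig2 directs expression of Sox10, and Sox10 in turn switches on Myrf, a membrane-bound factor that is cut to release the part that activates myelin genes. Nkx2-2 and Nkx6-2 are homeodomain factors of ventral progenitors that are expressed again as oligodendrocytes differentiate, and Zfp488, Zfp536 and St18 are zinc finger factors found in the lineage, of which Zfp536 and St18 are also made by some neurons.

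Olig2, Nkx6-2, Sox8 and Zfp536 are shown by their promoters. The first 3 were below 1% of their level in mouse 3 in both mice 2 and 4, and Zfp536 was above 20% in both. Nkx2-2, at 0.213% and 0.111%, and Sox10, at 0.0897% and 0.0934%, were also below 1% in both, but their sequences are not printed. Each window runs from 250 bases before to 50 bases after the start in RefSeq, on the strand of the gene, from RefSeq on GRCm38.p6, which had an entry for 6 of the 10 factors (these 4, Nkx2-2 and Zfp488). Capitals mark matches on either strand to the SOX cores ACAAAG and ACAATG, the E-box CAGCTG, the CCAAT box (CCAAT) and the TATA box (TATAAA). The windows are chr16:91225300-91225599 on the plus strand for Olig2, and on the minus strand chr7:139582748-139583047 for Nkx6-2, chr17:25570637-25570936 for Sox8 and chr7:37769703-37770002 for Zfp536. The gene positions given with the values below are those of GENCODE, whose outermost start is the same for Nkx6-2 and Sox8. The RefSeq start lies 93 bases inside the GENCODE gene for Olig2, 3889 bases for Zfp536 and 7841 bases for Nkx2-2.
Olig2: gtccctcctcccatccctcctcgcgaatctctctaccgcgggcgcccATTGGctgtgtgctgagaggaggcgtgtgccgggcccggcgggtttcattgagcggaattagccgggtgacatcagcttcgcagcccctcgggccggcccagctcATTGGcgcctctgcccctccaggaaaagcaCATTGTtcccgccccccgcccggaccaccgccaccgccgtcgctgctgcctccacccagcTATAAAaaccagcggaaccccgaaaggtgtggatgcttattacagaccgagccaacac
Nkx6-2: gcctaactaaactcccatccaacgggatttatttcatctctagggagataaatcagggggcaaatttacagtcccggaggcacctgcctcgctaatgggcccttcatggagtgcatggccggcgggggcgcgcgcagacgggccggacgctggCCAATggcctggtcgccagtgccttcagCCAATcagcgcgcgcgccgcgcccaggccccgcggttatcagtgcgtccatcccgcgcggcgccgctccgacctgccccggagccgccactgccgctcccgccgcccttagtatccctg
Sox8: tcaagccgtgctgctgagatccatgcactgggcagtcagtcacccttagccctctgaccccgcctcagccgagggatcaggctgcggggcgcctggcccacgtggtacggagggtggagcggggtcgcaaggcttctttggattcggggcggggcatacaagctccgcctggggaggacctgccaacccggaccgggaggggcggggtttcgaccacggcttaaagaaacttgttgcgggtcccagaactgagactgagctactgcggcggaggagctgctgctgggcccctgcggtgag
Zfp536: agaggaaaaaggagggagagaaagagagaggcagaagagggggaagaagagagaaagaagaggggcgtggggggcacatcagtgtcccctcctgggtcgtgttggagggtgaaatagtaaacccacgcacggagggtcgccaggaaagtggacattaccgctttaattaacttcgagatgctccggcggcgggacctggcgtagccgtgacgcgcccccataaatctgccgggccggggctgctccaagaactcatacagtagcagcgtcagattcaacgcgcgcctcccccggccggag

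The Olig2 window held 1 SOX core, 2 CCAAT boxes and 1 TATA box, and the Nkx6-2 window held 2 CCAAT boxes. No match to these letters lay in the windows of Sox8, Zfp536 or Nkx2-2, and that of Zfp488 held 1 E-box. Of all 32851 windows in the table, 28.6% held a SOX core, 37.4% a CCAAT box, 16.3% the E-box and 13.6% a TATA box. Matches of different motifs were counted separately, and none overlapped in the printed windows. The 4 windows were 65.0%, 66.7%, 66.3% and 59.7% G and C in the order printed, against a median of 52.7% over all windows. These matches describe letters in the windows and say nothing of binding or control.

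The 2 factors that found the lineage were present in mice 1 and 3. Olig1, on chromosome 16 from 91269772 to 91271933 of GRCm38, plus strand, had 2798, 116, 2632 and 2 counts, or 25.9, 1.24, 30.5 and 0.0223 CPM. Its library of mouse 4 was at the floor of 3 counts or below. That of mouse 2 lay above it by the counting error of reads (95% Clopper-Pearson interval 1.03 to 1.49 CPM). Olig2, which lies upstream of Olig1 on the same strand from 91225457 to 91228677, had 542, 0, 468 and 0 counts, or 5.02, 0, 5.42 and 0 CPM. Both genes were thus low in mice 2 and 4, but the 116 counts of Olig1 in mouse 2 had no counterpart for Olig2. In mouse 2, Olig1 was at 4.07% of its level in mouse 3. By counting error alone, no count of Olig2 there allowed up to 0.592% of the level in mouse 3. Without molecular identifiers, these limits hold for reads and do not cover the loss of RNA molecules before sequencing. Whether such loss accounts for the difference between Olig1 and Olig2 in mouse 2 was not tested.

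Sox10 and Sox8 were high in mice 1 and 3 and at 1 or 2 counts in mice 2 and 4. Sox10 (chromosome 15, 79154908 to 79165240, minus strand) had 2850, 2, 2058 and 2 counts, or 26.4, 0.0214, 23.9 and 0.0223 CPM. The values of mice 1 and 3 were close to each other, and those of mice 2 and 4 were no more than a count of 0 allows. Sox8 (chromosome 17, 25565892 to 25570686, minus strand) had 1845, 1, 577 and 1 counts, or 17.1, 0.0107, 6.69 and 0.0111 CPM. Sox8 followed the same split, but unlike Sox10 it was not alike in the 2 mice that had it, since its level in mouse 1 was 255% of that in mouse 3, where for Sox10 it was 111%. The start of Sox8 overlaps 329 bases of the antisense gene 2810468N07Rik, which stood at 186, 15.3, 226 and 17.0 CPM, and these libraries do not keep the strand. In mice 2 and 4 the antisense gene had 1429 and 1522 counts beside 1 count of Sox8 in each, and its share in the Sox8 counts of mice 1 and 3 was not tested.

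Of the homeodomain factors, Nkx6-2 was the higher. Nkx6-2 (chromosome 7, 139579376 to 139582797, minus strand) had 4257, 32, 4404 and 5 counts, or 39.4, 0.342, 51.0 and 0.0557 CPM. It was the factor with the highest level in mouse 1 and stayed above the floor in all 4 libraries. Its 5 counts in mouse 4 all came from the second run, with 0 in the first. Nkx2-2 (chromosome 2, 147177546 to 147194243, minus strand) had 851, 2, 865 and 1 counts, or 7.88, 0.0214, 10.03 and 0.0111 CPM. Nkx2-2, which in the embryo also marks ventral progenitors of neurons, was without counts above the floor in mouse 4, the library with most transgene and Pkd2l1 counts. Its antisense partner Nkx2-2os had 3, 0, 199 and 1 counts, so overlapping reads cannot be assigned to one of the pair in mouse 3. Nkx6-2 overlaps 277 bases at the end of Inpp5a on the other strand, which stood at 30.4, 0.0107, 9.54 and 2.28 CPM, an order of mice unlike that of Nkx6-2.

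Myrf, the activator of myelin genes, was below 11 CPM in every library. Myrf (chromosome 19, 10208272 to 10240748, minus strand) had 810, 64, 944 and 0 counts, or 7.50, 0.685, 10.9 and 0 CPM. Like Olig1 it was measurable in mouse 2, at 6.26% of its level in mouse 3, and without a count in mouse 4. Tmem98, a membrane protein that binds Myrf and limits its cleavage, was at 29.6, 0, 37.8 and 0.0223 CPM, present where Myrf was high and absent from mouse 2, where Myrf had 64 counts.

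The 3 zinc finger factors had 3 different profiles. Zfp488 (chromosome 14, 33967070 to 33978764, minus strand), which promotes oligodendrocyte differentiation in mice, had no count in any column. Whether the authors' counting could have assigned reads to Zfp488 is not known, so its 0 is given as listed, with no upper limit on its level. Zfp536 (chromosome 7, 37472135 to 37773641, minus strand) had 1197, 287, 1268 and 279 counts, or 11.1, 3.07, 14.7 and 3.11 CPM. Mice 1 and 3 were again higher, but mice 2 and 4 kept 20.9% and 21.2% of the level in mouse 3. St18 (chromosome 1, 6487231 to 6860940, plus strand) had 1667, 291, 8645 and 3406 counts, or 15.4, 3.11, 100 and 38.0 CPM. St18 was the only member whose level in mouse 4 exceeded that in mouse 1.

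**Figure D1:**
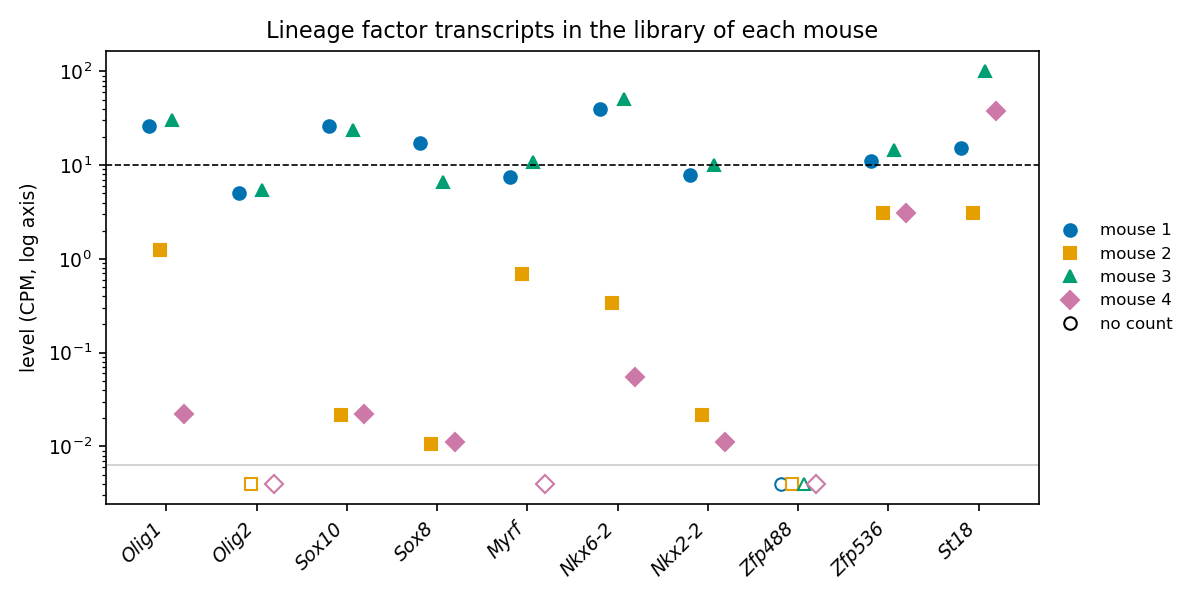
Level of each lineage factor in each of the 4 libraries, in CPM on a log axis; each symbol is 1 mouse, open symbols below the grey line had no count, and the dashed line marks 10 CPM. Olig1, Olig2, Sox10, Sox8, Myrf, Nkx6-2 and Nkx2-2 were higher in mice 1 and 3 than in mice 2 and 4, Zfp488 had no count, and St18 was highest in mice 3 and 4.

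Counted by library, 6, 0, 7 and 1 of the 9 tested factors stood at 10 CPM or more, where 46.8%, 45.7%, 49.5% and 47.6% of all 18522 tested genes did. At 3 counts or fewer stood 0, 4, 0 and 6 of the 9 factors, where 23.1%, 24.2%, 12.8% and 18.4% of all tested genes did. In mouse 2 these were Olig2, Sox10, Sox8 and Nkx2-2, and in mouse 4 Olig1 and Myrf joined them. The 2 sequencing runs of a library gave like values for the factors, with a ratio of the second to the first run between 0.812 and 1.16 over the 23 values with at least 100 counts, so the difference between mice was there in both runs.

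A fit over all tested genes asked whether each level, as a mean over the mice, differed from 10 CPM. With the quasi-likelihood test of edgeR, 1 of the 9 tested factors was above this level, St18, where 36.7% of all tested genes were. Its log2 level against 10 CPM was 1.97 with an SE of 0.53 (edgeR, adjusted p = 0.026 by Benjamini-Hochberg), and it stood at 10 CPM or more in 3 of 4 mice. The call was lost without mouse 3 (log2 level 0.90, edgeR adjusted p = 0.35; background 36.7%), without mouse 4 (1.95, edgeR adjusted p = 0.084; background 35.8%) and with limma-voom, which averages logs (1.00, adjusted p = 0.21). It held without mice 1 and 2 (2.85, edgeR adjusted p = 0.0016; background 37.0%), which keeps the 2 libraries in which St18 was highest. Without mice 1 and 2, Nkx6-2 (1.42), Olig1 (0.67) and Sox10 (0.32) had edgeR adjusted p-values of 0.49, 0.74 and 0.88 in that order. The next highest estimates were those of Nkx6-2 (1.18, SE 1.07, edgeR adjusted p = 0.39) and Olig1 (0.53, SE 1.09, edgeR adjusted p = 0.69). edgeR called 0 factors below 10 CPM (0 also at an unadjusted p under 0.05; background 0.669%), DESeq2 called St18 above and 0 below (backgrounds 33.2% and 11.0%), and limma-voom called 0 above and Olig2 alone below (backgrounds 35.9% and 33.3%). The median log2 level of the 9 factors was -0.32, against -0.07 over all tested genes.

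Set against the lower level of 1 CPM, edgeR called 5 of the 9 factors above, where 59.1% of all tested genes were called. These were St18 (edgeR adjusted p = 4.3e-06), Zfp536 (5.4e-04), Nkx6-2 (6.8e-04), Olig1 (0.0020) and Sox10 (0.0080). Nkx6-2, Olig1 and Sox10 were called on their mean over the mice although each was below 2 CPM in mice 2 and 4.

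Scaled by exonic length, so that genes can be compared, the mean level was highest for Nkx6-2 and lowest among the detected factors for Myrf. The order was Nkx6-2 at 11.9 ± 13.9 CPM per kb (SD, n = 4), Olig1 at 6.67 ± 7.42, St18 at 6.06 ± 6.68, Sox10 at 4.12 ± 4.76, Sox8 at 1.91 ± 2.59, Nkx2-2 at 1.56 ± 1.82, Olig2 at 1.03 ± 1.19, Zfp536 at 0.867 ± 0.634 and Myrf at 0.559 ± 0.622 CPM per kb. The SD exceeded the mean for all detected factors except Zfp536. Of the neighbours in this order, the higher was above the next in 4 of 4 mice for Sox10 over Sox8, Nkx2-2 over Olig2 and Zfp536 over Myrf, and the other neighbours did not keep 1 order in all 4 mice. For Sox10 over Sox8 and Nkx2-2 over Olig2, the order in mice 2 and 4 rests on 2 counts or fewer of each gene. Without mice 1 and 2, Nkx6-2 was still first (13.4 CPM per kb, mean of mice 3 and 4), but St18 (10.7) stood above Olig1 (7.06) and Nkx2-2 (1.75) above Sox8 (1.07).

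**Figure D2:**
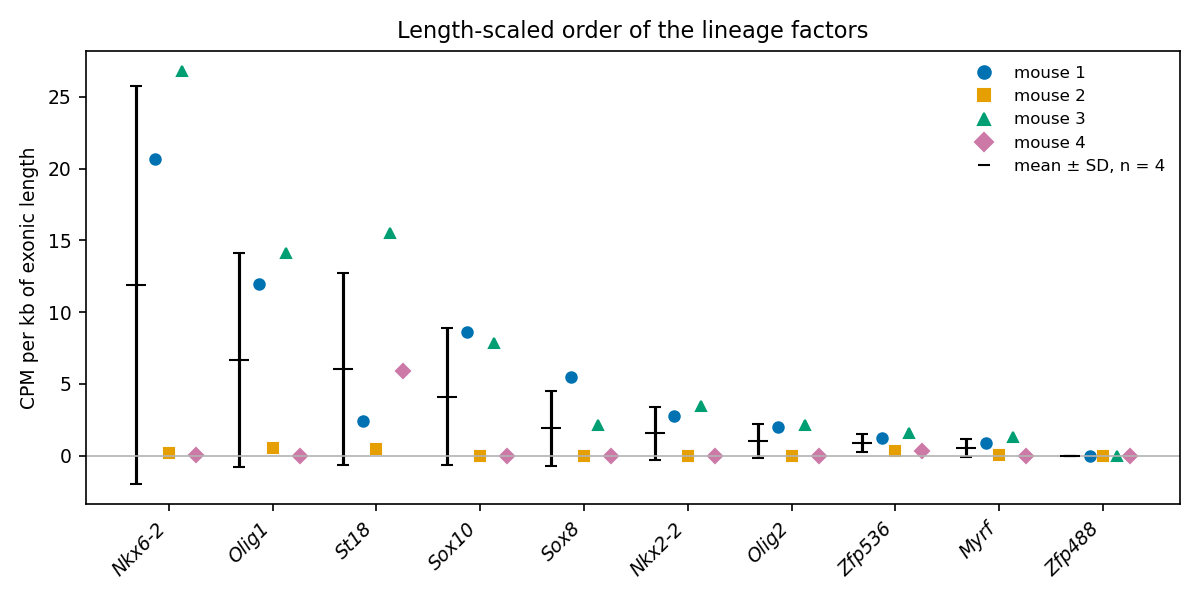
CPM per kb of exonic length for the 10 lineage factors, ordered by their mean; symbols are single mice and the black bar with whiskers is the mean ± SD over 4 mice. The SD of Nkx6-2, 13.9 CPM per kb, was larger than its mean of 11.9, and St18 was the factor with the highest value in mouse 4, at 5.87 CPM per kb.

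Of the 45 pairs of factors, 25 had the same order in all 4 mice, of which 7 set a factor against Zfp488, listed at 0 throughout, so that their order was given. Most of the other 18, of 36 pairs, rest in part on a few counts in mice 2 and 4. Zfp536 over St18 does not, with 279 counts or more of each gene in these mice. With 4 mice the exact two-sided sign-flip permutation test cannot go below 2 of 16 sign patterns (0.225 after adjustment over the 45 pairs), so no pair could pass. Only Nkx6-2, Zfp536 and St18 were above the floor in every library, Nkx6-2 with no more than 5 counts in mouse 4. Among them, Zfp536 over St18 had a log2 ratio of level per kb of -0.93, -0.43, -3.20 and -3.77, a mean of -2.08 ± 1.65 (SD, n = 4; exact permutation test, adjusted p = 0.225), with St18 the higher in 4 of 4 mice. Nkx6-2 over St18 was 3.06, -1.06, 0.78 and -5.53, so that Nkx6-2 was the higher in mice 1 and 3 and St18 in mice 2 and 4. Nkx6-2 over Zfp536 split the same way, at 4.00, -0.63, 3.99 and -1.76.

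Myelin genes, the targets of this network, gave the levels against which the factors can be read. Of 12 myelin and mature oligodendrocyte genes, 10 were above 10 CPM by edgeR and 0 below (limma-voom called 5 above, DESeq2 8). Mbp, the myelin basic protein gene, stood at 1312, 31.3, 1690 and 217 CPM, Cnp, an enzyme gene of myelinating cells, at 898, 103, 1440 and 70.5 CPM, and Ugt8a, the enzyme of galactolipid synthesis, at 756, 0.396, 1044 and 1.18 CPM. Myelin RNA was thus high in the same 2 libraries as Sox10 and still present in the others. Mouse 4 had the larger myelin sum of these others, at 460 CPM beside 238 CPM in mouse 2.

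Relative to myelin RNA, the factors differed between mice 2 and 4. The summed counts of Olig1, Olig2, Sox10, Sox8, Myrf, Nkx6-2 and Nkx2-2, a set put together after the values were seen, were 13953, 217, 11948 and 11, or 8.11, 9.74, 6.71 and 0.267 per 1000 counts of the 12 myelin genes. The ratio of this set in mouse 2 was close to that in mice 1 and 3, and that in mouse 4 was the lowest. The set leaves out St18 and Zfp536, the factors that kept most of their level in mouse 4. St18 alone had 82.5 counts per 1000 myelin counts there, so the low ratio of mouse 4 holds for this set and not for all factors. The makeup of the counts in mouse 2 was different, however, and whether the loss of RNA molecules before sequencing accounts for it was not tested. Olig1 had 1.63, 5.21, 1.48 and 0.0485 counts per 1000 myelin counts and Myrf 0.471, 2.87, 0.531 and 0, both highest in mouse 2. Sox10 had 1.66, 0.0898, 1.16 and 0.0485 and Nkx2-2 0.495, 0.0898, 0.486 and 0.0242, both low in mouse 2 as in mouse 4. St18 had 0.969, 13.1, 4.86 and 82.5 and Zfp536 0.696, 12.9, 0.713 and 6.76 counts per 1000 myelin counts, which were lowest in mouse 1.

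**Figure D3:**
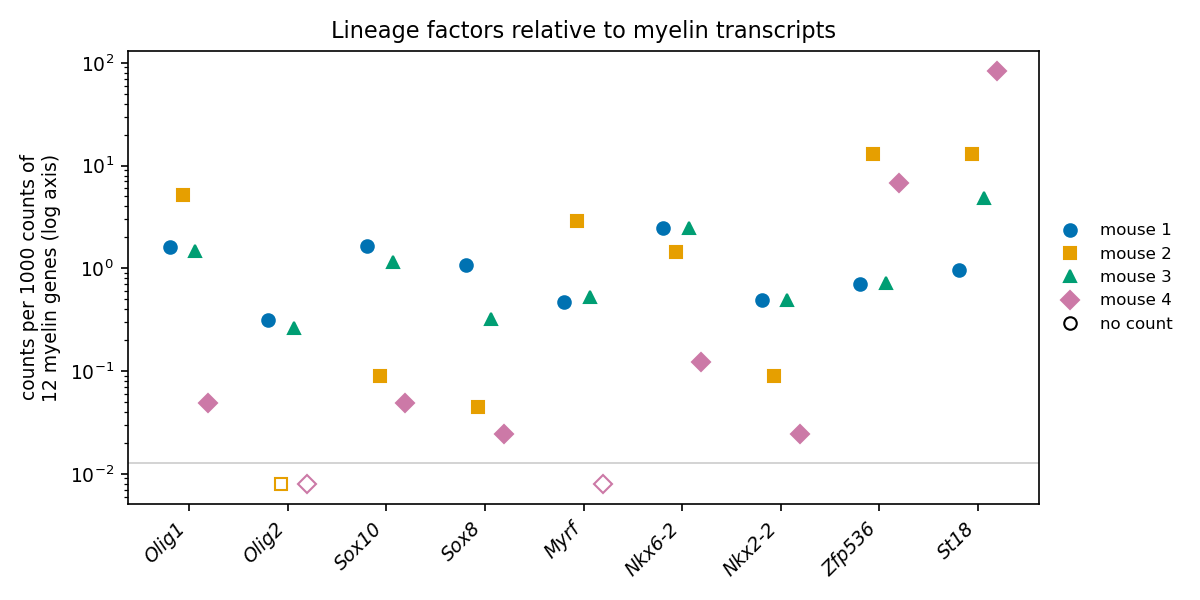
Counts of each lineage factor per 1000 counts of 12 myelin genes in the same library, on a log axis, for the 9 factors with counts; symbols are single mice and open symbols had no count. Sox10 was at 1.66, 0.0898, 1.16 and 0.0485 in mice 1 to 4, and St18 reached 82.5 in mouse 4.

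In mouse 2 the level of the 9 factors was 0 to 20.9% of that in mouse 3, with a median of 0.671%, and that of the 12 myelin genes 0 to 7.12%, with a median of 0.465%. In mouse 4 the factors were at 0 to 37.9%, with a median of 0.109%, and the myelin genes at 0 to 12.9%, with a median of 1.84%. The myelin genes were not uniform. In mouse 4 Mbp was at 12.9%, Mobp at 6.54%, Cnp at 4.90% and Mag at 4.82% of mouse 3, while Ugt8a was at 0.113%, Ermn at 0.102% and Aspa at 0.0242%, and Mog had no count. Sox10 had 2 counts in mouse 4, or 0.0934% of its level in mouse 3, where the floor of 3 counts stood at 0.140%. This share was below that of Mbp, near those of Ugt8a and Ermn, and above those of Aspa and Mog. Microglial RNA was high in all 4 libraries, and whether part of the myelin RNA of mice 2 and 4 came with it was not tested.

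**Figure D4:**
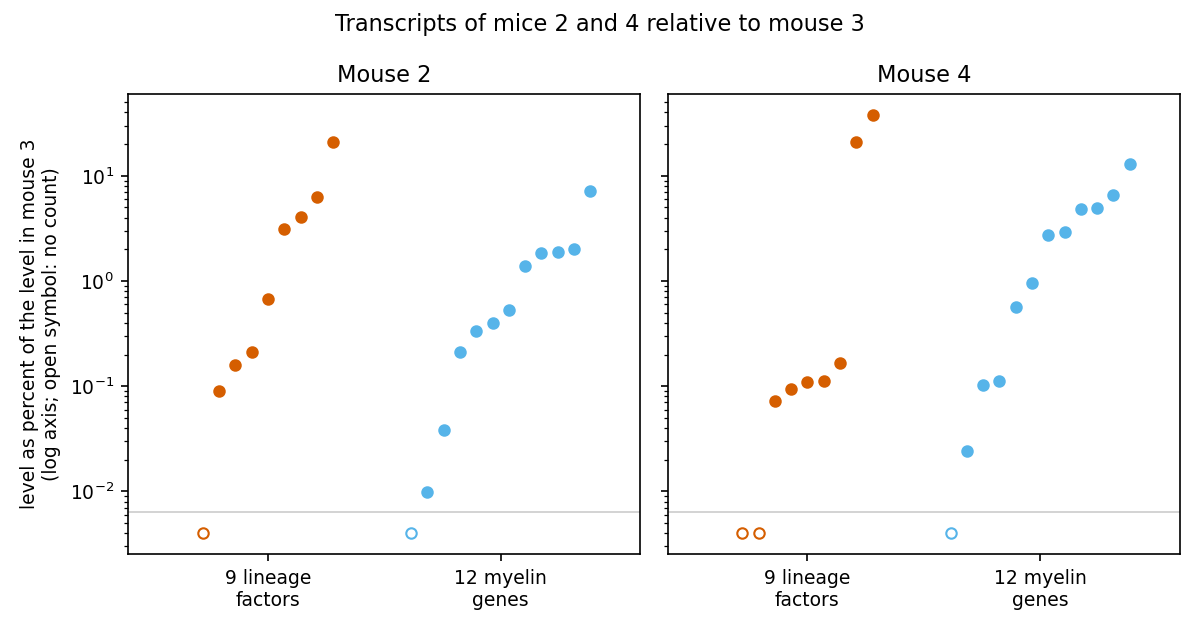
Level of the 9 lineage factors with counts and of 12 myelin genes in mouse 2 (left) and mouse 4 (right), as percent of the level of the same gene in mouse 3, on a log axis; each point is 1 gene, in rising order within its set, and open points had no count. In mouse 4, 7 of the 9 factors were at 0.167% or less, and the 2 above were Zfp536 at 21.2% and St18 at 37.9%.

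Precursor genes were read beside the factors. Of 6 precursor genes, 4 were tested and 0 called above 10 CPM by edgeR (0 at an unadjusted p under 0.05, 0 by DESeq2 and limma-voom). With 36.7% of all tested genes called above by edgeR, 0 of 4 says little. The defining precursor genes Pdgfra and Cspg4 had no count and at most 4 counts in a library, and Ptprz1 was at 0.583, 0.407, 0 and 0.0669 CPM. Lhfpl3 (0, 0, 9.86 and 3.69 CPM) and Vcan (0.111, 0.482, 4.00 and 0.969 CPM) were highest in mice 3 and 4 and so did not follow Sox10. Of 5 genes of committed precursors, Enpp6, an enzyme of newly forming oligodendrocytes, was called above 10 CPM at 276, 0.128, 345 and 0.123 CPM (edgeR adjusted p = 0.0086, and 0.029 without mice 1 and 2; not called by limma-voom, adjusted p = 0.83). Itpr2, the other gene called, was at 98.2, 119, 76.4 and 93.0 CPM, Bcas1 at 21.8, 3.40, 28.3 and 13.9 CPM, and Gpr17 and Bmp4 had no count. Precursors and mature cells share the factors Olig1, Olig2, Sox10 and Nkx2-2, which were highest in mice 1 and 3. In these 2 libraries myelin genes such as Mbp and Ugt8a were abundant, Enpp6 was high, and Pdgfra and Cspg4 were at or near 0. Lhfpl3 and Vcan were not near 0 in mouse 3, and the stage of the cells that held the factors was not tested.

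Other regulators of the lineage were read from 2 lists. Of 12 that promote it, 11 were tested and 8 called above 10 CPM by edgeR (8 by limma-voom, 8 by DESeq2). The share of all tested genes was 36.7% by edgeR, 35.9% by limma-voom and 33.2% by DESeq2. Among the 8 were the chromatin remodeller Chd7 (143, 232, 78.3 and 164 CPM), the repressor Zeb2 (128, 140, 83.2 and 132 CPM), the zinc finger factor Zfp24 (116, 144, 97.1 and 109 CPM) and the deacetylase Hdac2 (111, 102, 150 and 102 CPM). These genes are widely expressed, and each was present in all 4 libraries. Of 7 genes that hold differentiation back, Id2, which blocks helix-loop-helix factors, was called (496, 71.9, 92.8 and 98.1 CPM). Id4 was at 0, 0.0214, 8.18 and 8.81 CPM, Hes1 at 7.72, 0.449, 0.487 and 0.501 CPM, and Hes5 had no count. Tmem98, described above with Myrf, was the only member of this list with the pattern of Sox10.

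Among 9 paralogs of the factors, edgeR called 0 of 5 tested above 10 CPM (0 at an unadjusted p under 0.05, 0 by DESeq2 and limma-voom). So few genes say little beside the 36.7% of all tested genes that edgeR called above. Nkx2-9, a close relative of Nkx2-2 known from the ventral neural tube, stood at 24.5, 0, 41.8 and 0.0223 CPM and was higher than Nkx2-2 in CPM in mice 1 and 3. Nkx6-1, the relative of Nkx6-2, was instead at 0, 0, 4.14 and 2.36 CPM, with no count in mouse 1, where Nkx6-2 was high. Of the relatives of St18, Myt1l, a neuronal factor, was at 0, 0.0107, 23.0 and 26.3 CPM, and Myt1 was at 0, 0, 12.7 and 0.111 CPM, nearly all of it in mouse 3. Sox9, related to Sox10 and Sox8, had counts in mouse 4 alone (1.65 CPM), and Olig3, Myrfl and Nkx6-3 had none.

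Because Sox10 and St18 are not made by oligodendrocytes alone, markers of other cells were summed beside them. Of the Schwann cell list, which peripheral Sox10 would accompany, Prx had no count. The list summed to 57.1, 34.1, 23.6 and 30.5 CPM, and most of this sum was Egr2 (53.7, 34.1, 17.2 and 30.5 CPM), a gene also made by other cells. Of the same list, Pmp2 was at 3.00, 0, 0 and 0 CPM, Pou3f1 at 0.435, 0.0107, 3.28 and 0 CPM, and Ncmap at 0, 0, 3.18 and 0.0223 CPM. Each of these was thus low, with most of its level in mouse 1 or mouse 3, the libraries with high Sox10. The 8 CSF-cN genes summed to 20.3, 12.9, 941 and 846 CPM and 6 pan-neuronal genes to 42.4, 68.8, 748 and 318 CPM. St18 was, like these sums, higher in mice 3 and 4 than in mice 1 and 2, and was lowest in mouse 2. In mouse 1, with few CSF-cN counts and much myelin RNA, St18 was at 15.4 CPM. The 8 astrocyte genes summed to 955, 157, 908 and 289 CPM, with Aldoc (835, 11.6, 846 and 118 CPM) the largest part in mice 1 and 3 and Slc1a3 (115, 122, 52.1 and 155 CPM) in mice 2 and 4. Aqp4, the astrocyte water channel, was at 0.00926, 0.182, 0.707 and 5.45 CPM. The 6 ependymal genes summed to 0, 0.471, 10.6 and 59.3 CPM, and of the floor plate and V3 neuron genes Foxa2 (4.78 CPM in mouse 3) and Sim1 (4 counts in mouse 1) exceeded the floor. The part of each of these cell types in the factor levels was not tested.

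**Figure D5:**
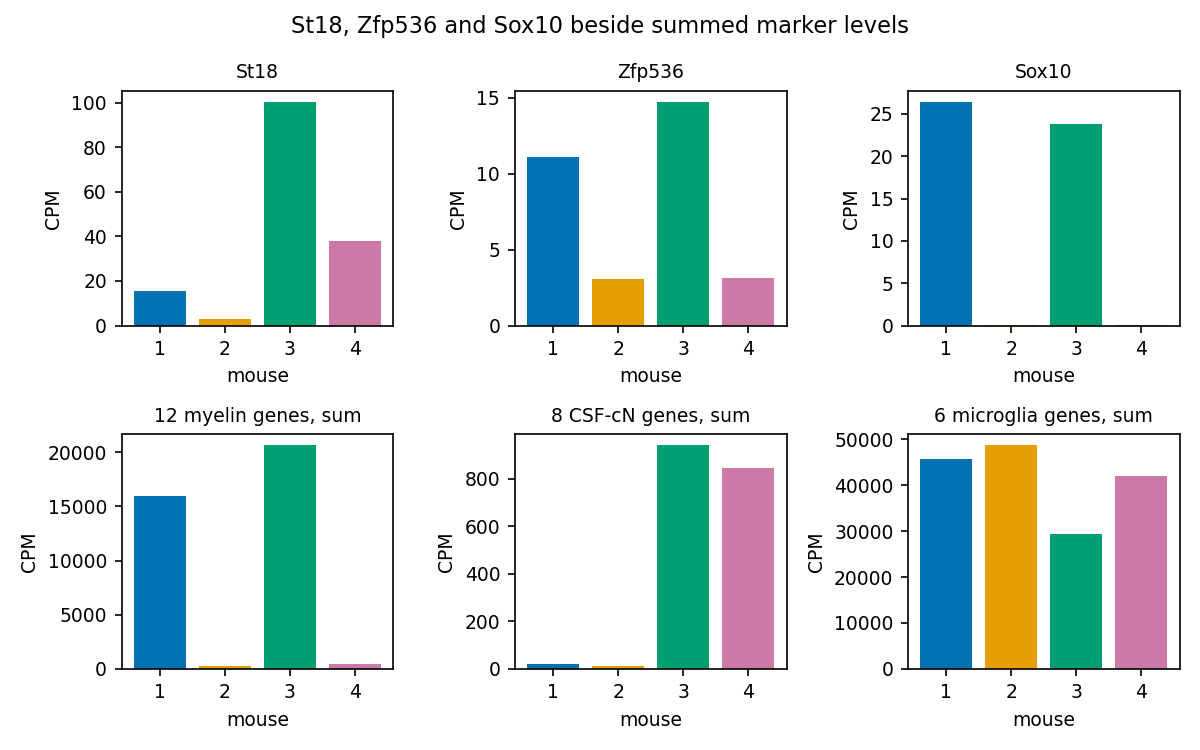
Levels of St18, Zfp536 and Sox10 (upper row) and summed levels of 12 myelin genes, 8 CSF-cN genes and 6 microglia genes (lower row) in each mouse, in CPM on linear axes starting at 0; each bar is 1 library. Sox10 was high in the 2 libraries with high myelin sums, and St18 was highest in the 2 libraries with high CSF-cN sums.

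The genes with profiles most like that of Sox10 were found by the root mean square difference of centred log2(CPM + 1) over the 4 mice, among the 9124 other tested genes whose mean was 10 CPM or more. The 5 nearest were Zfp239 (difference 0.0494), the integrin gene Itgb4 (0.0696), the connexin gene Gjb2 (0.112), the G protein gene Gng8 (0.139) and Plekhf1 (0.146). Zfp239 was at 28.0, 0.0107, 25.3 and 0.0111 CPM. For Olig2 the nearest were Pigz (0.135), Enpp4 (0.141), Plpp2 (0.145), Stard5 (0.147) and Apbb2 (0.181). These genes had higher levels and were not absent from mice 2 and 4, as for Enpp4 at 189, 31.4, 225 and 39.6 CPM, since adding 1 CPM shortens the range of a gene as low as Olig2. For St18, added after its values were seen, the nearest were Atp6v0e2 (0.190), Pld5 (0.199), Bicd1 (0.208), Gnao1 (0.223) and Phlda3 (0.232), of which Gnao1, a G protein subunit abundant in neurons, was at 10.3, 1.08, 47.0 and 17.3 CPM. With 4 libraries that share their sources, such likeness is a description.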

How the data were processed

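Per the labels' protocols, Smart-Seq v4 (11 PCR cycles) gave the cDNA and Nextera XT the libraries. These cover whole transcripts, without strand or molecular identifiers. The deposited counts are whole numbers, with 2 columns per mouse that the header calls replicates 1 and 2, taken here as repeat runs and summed. The submitters' processing notes name FastQC, Trim Galore, STAR, RSEM, DESeq2 and build mm10; of versions, settings and annotation nothing is given in these sources. The authors' deposited log2 table equals log2 of summed counts over a size factor plus 1, to within 5.04e-09, and served only as an alternative.

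Counts were scaled to CPM with TMM factors (0.935 to 1.05). An intercept-only edgeR 4.0.16 quasi-likelihood fit (R 4.3.3), with an F test computed from its deviances, tested 18522 genes with at least 10 counts against 10 CPM, with Benjamini-Hochberg adjustment over all of them and a threshold of 0.05. It was tested on simulated data, where it found genes above but hardly any below 10 CPM, so a count of 0 below is not informative. DESeq2 1.42.0 and limma 3.58.1 were alternatives. Lengths (union of exons) and positions come from GENCODE M21 on GRCm38, also called mm10. Pairs used log2(CPM per kb + 0.1). Intervals are Clopper-Pearson. Python 3.11.15 and scipy 1.17.1 were used. All samples are separate mice.

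The factors and the 14 gene lists (105 genes) were chosen with earlier results of these data known. Genes were named from a set of all factors, the 4 genes with the highest mean of every other list (all of lists of 5 or fewer), the 5 nearest profiles to Sox10 and Olig2, and the construct rows. A few further genes (Mobp, Mag, Ermn, Aspa, Mog, Pdgfra, Cspg4, Hes5, Sox9, Olig3, Myrfl, Nkx6-3, Prx, Aqp4 and the overlapping genes) were named for their role after their values were seen. Some genes of the lists are not reported here by name.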

Additional observations from a re-analysis of the deposited data

Results flagged for a closer look

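In 58 named genes with counts, a library far from the other 3 was looked for with Dixon's ratio on log2(CPM + 1) at its 95% critical value, a check that flags about 1 in 20 by chance. None of the lineage factors was flagged, and 11 other genes were. Most factors were high in mice 1 and 3 and low in mice 2 and 4. The ratio looks for 1 library apart and does not detect such a split, so the lack of a flag says nothing of their spread. Mouse 1 stood apart for Id2 (ratio 0.84), Hes1 (0.98), Pmp2 (1.0) and Sim1 (1.0), each high there, with Pmp2 at 3.00 CPM and Sim1 at 4 counts or fewer. It was low for Tal1 (0.841). Mouse 3 was high for Myt1 (0.96), Ncmap (0.985) and Foxa2 (0.994) and low for Zeb2 (0.837). Mouse 4 was high for the ependymal genes Ccdc153 (0.992) and Rarres2 (0.996).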

How the results depend on the processing

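No paired analysis was possible because the 4 libraries form a single group. The count of factors called above 10 CPM, 1 in the reported edgeR fit, was 0 with limma-voom, 0 to 1 when each mouse was left out in turn and 5 against 1 CPM; it stayed 1 with DESeq2's size factors or test, library totals only, no filter on low counts, either run alone and without mice 1 and 2. Factors called below numbered 1 with limma-voom (Olig2, log2 level -5.89) and 0 otherwise. The direction relative to 10 CPM of Nkx6-2 (-1.84), Olig1 (-2.004) and Sox10 (-3.51) reversed with limma-voom, which averages logs. It also reversed for Olig1 without mouse 3 (-0.16) and for Sox10 without mouse 1 (-0.30) or mouse 3 (-0.19). Leaving out each mouse in turn gave -0.16 to 0.92 for Olig1 and -0.30 to 0.75 for Sox10, with no call. Relative to 1 CPM the estimates of Olig2 (1.38), Sox8 (2.57), Myrf (2.26), Nkx2-2 (2.17) and Zfp536 (3.00) turned positive, by construction of the lower level. Myelin genes called above 10 CPM numbered 5 with limma-voom (background 35.9%), against 10 (background 36.7%). The other 13 lists together had 33 calls (background 36.7%). Over the alternatives they had 25 (limma-voom, background 35.9%) to 48 (against 1 CPM, background 59.1%). The 25 pairs with 1 order became 25 to 30 when a mouse was left out, and 35 without mice 1 and 2, a setting added after the values were seen. Without mice 1 and 2, 9 of the 12 myelin genes were called above 10 CPM (background 37.0%). Of the 9 tested factors, 7 were highest in mouse 3, and 8 with library totals only or the first run, where Sox10 joined. No row named as a factor plus a number exists, so adding such rows changed nothing. The values at 3 counts or fewer, those of 4 factors in mouse 2 and 6 in mouse 4, were no more than a count of 0 allows. That limit covers only the counting error of reads. The part of read depth and of the loss of RNA molecules before sequencing in these low values was not tested.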
